A study of Homo sapiens with 12 samples.

Results

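The genes described here are the numbered zinc finger genes of human chromosome 19: every gene row whose symbol is ZNF plus a number, with at most 1 trailing letter, and whose exons lie on that chromosome. The symbol pattern left out antisense and divergent transcripts, and rows that GENCODE release 29 or RefSeq label as pseudogenes were also left out. This removed ZNF781, which RefSeq lists as a transcribed pseudogene and GENCODE release 29 as protein coding. Of 246 candidates, 227 had at least 10 counts in at least 3 libraries and are the members; these were 227 of the 60649 gene rows counted per library. All 227 also passed the expression filter of the test, which kept 16683 genes, and 217 of them had at least 10 counts in each of the 12 libraries. Another 236 numbered ZNF genes on other chromosomes and 1024 other chromosome 19 genes were tested and are used for comparison.

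The cells were SBC3, an established human small cell lung cancer (SCLC) line, grown as spheroids. There were 4 groups of 3 libraries: control, teriflunomide, lurbinectedin, and both drugs together (the combination). Teriflunomide inhibits dihydroorotate dehydrogenase, an enzyme of pyrimidine synthesis, and lurbinectedin binds the DNA minor groove and interferes with transcription. Doses, treatment times and the control's vehicle are not given in the sources used here, all libraries come from 1 cell line, and nothing says that replicates were separate cultures, so p-values measure only the spread between these libraries.

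Most genes of this family encode proteins with a row of C2H2 zinc fingers, each of which contacts a few bases of DNA, and most of those on chromosome 19 also carry a KRAB domain near the N-terminus. The KRAB domain recruits TRIM28 (KAP1), which brings the histone methyltransferase SETDB1 and HP1 proteins to form silent chromatin, above all on transposable elements. The genes arose by repeated tandem duplication and lie in clusters of near relatives, so reads from shared stretches may be split between members. How such reads were assigned is not given in the sources used here.

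Total counts ranged from 23206414 to 33222162 per library. Of the SCLC and neuroendocrine markers, INSM1 and NCAM1 were at or near 0 in the control libraries, while SYP had a mean of 16.8 CPM (counts per library scaled for depth) in control and 30.9 with lurbinectedin. The means of NEUROD1 were 4.03 and 1.62 CPM, and those of YAP1 were 246.0 and 64.9 CPM. Of the epithelial genes, KRT8 had 252.0, 236.0 and 241.0 CPM in control and 433.0, 400.0 and 433.0 CPM with lurbinectedin, while EPCAM, KRT18 and KRT19 were at or near 0 in control. The blood and endothelial genes PTPRC, CD3E and VWF were at or near 0, and PECAM1 had 10, 11 and 13 counts in control and 0, 1 and 0 with lurbinectedin. Of the fibroblast markers, COL1A1 and COL1A2 had 259.0 to 276.0 CPM in control and 89.9 to 114.0 CPM with lurbinectedin, while DCN had 0 counts in every control library. Teriflunomide replicate 3 and combination replicate 2 stood apart from their groups: mitochondrial transcripts took 22.6% and 24.9% of their counts, against 8.42% and 8.43% in the other teriflunomide libraries, 13.1% and 14.6% in the other combination libraries, 6.26% to 7.17% in control and 13.8% to 17.0% with lurbinectedin. The part of these markers and libraries in the results was not tested, and the counts that lead each comparison are also given without both libraries, a choice made after seeing the data. Shares of all genes called in that smaller fit are not given, so its counts have no background beside them.

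Promoters show how alike neighbouring members are. RefSeq promoter sequences (GRCh38.p14, from 250 bases before to 50 bases after the annotated start) were found for 202 of the 227 members. Linking promoters step by step wherever a pair was at least 70% identical in a global alignment gave 2 families of 10 or more genes. Shown first are 3 of the 10 promoters of the family in the cluster at chr19:51571283-53580269 because their genes differ in their response to lurbinectedin although the promoters are alike. The genes of the first and second rose with lurbinectedin, and the gene of the third (ZNF83) did not pass the test. Capitals mark bases within any stretch of 8 bases that occurs somewhere in all 3 promoters. Adjoining stretches run together, so a longer run in capitals need not be shared as a whole or lie at the same position.
ZNF468 (chr19:52857570-52857869, minus strand): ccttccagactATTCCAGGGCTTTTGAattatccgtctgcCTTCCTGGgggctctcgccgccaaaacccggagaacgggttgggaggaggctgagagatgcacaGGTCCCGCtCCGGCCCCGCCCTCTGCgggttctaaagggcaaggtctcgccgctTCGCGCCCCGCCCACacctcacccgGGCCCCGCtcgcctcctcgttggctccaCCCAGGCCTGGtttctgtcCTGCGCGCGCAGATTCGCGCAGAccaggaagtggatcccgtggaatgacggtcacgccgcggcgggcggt
ZNF761 (chr19:53431734-53432033, plus strand): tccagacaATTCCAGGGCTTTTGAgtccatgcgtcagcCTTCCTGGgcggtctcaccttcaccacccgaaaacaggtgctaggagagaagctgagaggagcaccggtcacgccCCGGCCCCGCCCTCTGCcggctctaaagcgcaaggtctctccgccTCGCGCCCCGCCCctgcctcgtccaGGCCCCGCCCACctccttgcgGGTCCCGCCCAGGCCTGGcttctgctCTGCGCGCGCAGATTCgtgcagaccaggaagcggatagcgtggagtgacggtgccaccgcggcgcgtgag
ZNF83 (chr19:52690447-52690746, minus strand): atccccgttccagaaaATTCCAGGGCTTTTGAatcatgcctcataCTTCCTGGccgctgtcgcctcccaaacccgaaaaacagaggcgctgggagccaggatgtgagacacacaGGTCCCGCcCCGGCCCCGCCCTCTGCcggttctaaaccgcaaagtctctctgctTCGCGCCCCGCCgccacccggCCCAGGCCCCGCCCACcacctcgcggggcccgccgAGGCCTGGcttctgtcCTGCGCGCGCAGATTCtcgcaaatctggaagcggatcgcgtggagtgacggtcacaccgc

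The ZNF468 promoter was 79.3% identical to that of ZNF761 and 76.1% identical to that of ZNF83. The other family, of 20 genes, lies in the cluster at chr19:19668796-24129968. Of its promoters 3 are shown because the gene of the first fell with lurbinectedin, that of the second (ZNF91) did not pass the test and that of the third rose. Capitals again mark bases within any stretch of 8 bases that occurs somewhere in all 3 promoters, and adjoining stretches run together.
ZNF626 (chr19:20661522-20661821, minus strand): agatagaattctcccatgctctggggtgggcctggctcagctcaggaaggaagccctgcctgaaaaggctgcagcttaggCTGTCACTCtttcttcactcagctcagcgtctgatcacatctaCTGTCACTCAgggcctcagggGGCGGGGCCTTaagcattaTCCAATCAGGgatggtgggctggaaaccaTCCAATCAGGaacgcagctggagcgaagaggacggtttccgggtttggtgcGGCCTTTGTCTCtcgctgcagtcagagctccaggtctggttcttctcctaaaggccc
ZNF91 (chr19:23395422-23395721, minus strand): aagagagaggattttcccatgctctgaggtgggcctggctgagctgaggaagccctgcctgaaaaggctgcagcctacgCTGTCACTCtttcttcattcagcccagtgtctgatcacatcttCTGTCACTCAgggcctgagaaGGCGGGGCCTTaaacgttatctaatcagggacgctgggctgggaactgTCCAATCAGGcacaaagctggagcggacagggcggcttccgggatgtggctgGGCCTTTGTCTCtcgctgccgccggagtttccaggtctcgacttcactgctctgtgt
ZNF682 (chr19:20039456-20039755, minus strand): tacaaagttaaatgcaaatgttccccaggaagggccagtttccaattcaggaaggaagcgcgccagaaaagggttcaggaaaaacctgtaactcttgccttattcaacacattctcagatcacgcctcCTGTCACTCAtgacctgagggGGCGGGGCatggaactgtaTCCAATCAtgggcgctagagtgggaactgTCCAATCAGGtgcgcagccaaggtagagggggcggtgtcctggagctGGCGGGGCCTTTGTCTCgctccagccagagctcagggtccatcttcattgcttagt

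The ZNF626 and ZNF91 promoters were 80.3% identical, and they were 65.5% and 65.4% identical to that of ZNF682. Between the families, the ZNF468 and ZNF91 promoters were 45% identical, against a median of 46.9% over all 20301 pairs of member promoters. The shared TCCAATCAGG runs of ZNF626, ZNF91 and ZNF682 hold a CCAAT box, a general promoter element. The letters CCAAT were found on either strand in 20 of the 20 promoters of the family around ZNF91 and in 1 of the 10 of the family around ZNF468.

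In control spheroids the members were expressed at low to middling levels. Levels are given as reads per kilobase of exon, scaled for depth (RPKM) where genes are compared with each other, and as counts scaled for depth with edgeR's TMM factors (CPM) where 1 gene is followed across libraries. The median control level of the members was 2.34 RPKM, against 2.7 RPKM for all genes tested, and 184 of the 227 were over 1 RPKM. ZNF146, which codes for a protein made almost wholly of zinc fingers, had the highest level per length at 36.1 RPKM. It was followed by ZNF428 at 14 RPKM, ZNF317 at 12.7 RPKM, ZNF581 at 11.5 RPKM and ZNF480 at 9.93 RPKM. ZNF146 shares 10.8% of its exonic length with the oppositely transcribed ZNF565, and 32.1% of that of ZNF428 overlaps SRRM5 on the other strand.

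The 19 candidates under the count minimum included ZNF208, ZNF257, ZNF728 and ZNF729, which had 0 counts over all 12 libraries. ZNF676 and ZNF726 had 2 counts each, ZNF98 had 8, ZNF506 had 15 and ZNF723 had 54. All 9 lie in the cluster that holds ZNF91, where 28 of 37 candidates reached the minimum. Others under it were ZNF177 with 1 count, ZNF835 with 1 count and ZNF302 with 2 counts over the 12 libraries.

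With lurbinectedin 134 of the 227 members were higher than in control and 22 lower, or 104 and 42 with libraries scaled by plain size. The share of all counts that fell on the 227 genes was 0.418% ± 0.003 (SD, n = 3) in control, 0.437% ± 0.00721 under teriflunomide, 0.579% ± 0.00379 under lurbinectedin and 0.599% ± 0.0156 under both drugs. Relative to the control mean, the members' median log2 ratio was -0.02, 0.03 and -0.01 in the control libraries and 0.54, 0.46 and 0.49 in the lurbinectedin libraries. The ranges of these library medians did not overlap. All values are relative to the RNA counted in a library, so fewer cells that express a gene and less RNA per cell cannot be told apart. In edgeR's quasi-likelihood test with Benjamini-Hochberg adjustment over 16683 genes (call at adjusted p under 0.05), the 134 higher members were 59.0% of the 227 and the 22 lower 9.69%. Over all genes tested, 36.0% were higher and 35.7% lower, so the members' share lay above this background upwards and below it downwards. The members' median log2 fold change was 0.51, with 80% of them between -0.37 and 1.53; the median of all genes was 0.05, and 80% of all genes lay between -2.29 and 1.62.

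Other sets of genes also leaned upwards. Of the 236 numbered ZNF genes on other chromosomes, 122 were higher and 58 lower, and their median log2 fold change stood at 0.38. Of 1024 other chromosome 19 genes, 550 were higher and 145 lower, with a median of 0.65. Changes of at least 2-fold were called upwards in 60 members (26.4%, against 20.1% of all genes) and downwards in 11 (4.85%, against 24.0% of all genes). Of the 227 members, libraries did not overlap in 151 that were higher and 38 that were lower, against 42.4% and 40.8% of all genes. Without teriflunomide replicate 3 and combination replicate 2, which enter the shared estimate of spread, 145 members were higher and 33 lower with lurbinectedin. Scaling by plain library size, which moves the median of all genes from 0.05 to -0.18, gave 104 higher and 42 lower members. Of all 16683 genes, 4313 were higher and 6699 lower with that scaling. The members' median was then 0.27, and the share of called members that were higher was 71.2%, against 85.9%.

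**Figure D1:**
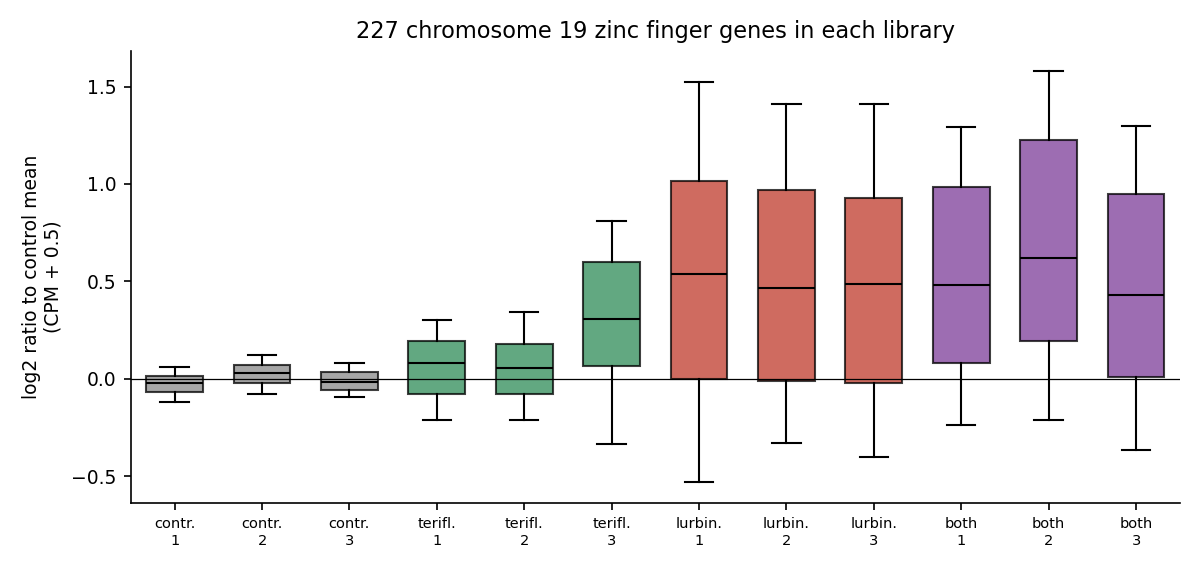
Box plot of the log2 ratio of CPM + 0.5 to the control mean for the 227 members in each of the 12 libraries; the line is the median, the box the middle 50% of the members and the whiskers the 10th and 90th percentiles (lurbin., lurbinectedin; terifl., teriflunomide; both, combination). Lurbinectedin libraries had medians from 0.46 to 0.54 and combination libraries from 0.43 to 0.62, and teriflunomide replicate 3 stood at 0.31 against 0.08 and 0.05 for the other teriflunomide libraries.

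The largest rise among the genes with at least 2 CPM was that of ZNF296 (chr19:45071500-45076587, minus strand), a gene known from pluripotent cells, with a span of 5.09 kb. It had 3.08, 3.81 and 3.64 CPM in control and 45.8, 34.7 and 37.4 CPM with lurbinectedin. All 3 treated libraries lay far above all 3 controls, and the difference was 3.48 ± 0.22 on the log2 scale (SE; adjusted p in edgeR = 7.22e-09). With teriflunomide alone ZNF296 was at 2.49, 2.72 and 1.29 CPM, below the control libraries, but did not pass the test (log2 fold change -0.68, adjusted p = 0.0947). With the combination it stood at 24.3, 31.6 and 25 CPM.

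Large rises were also seen in 3 neighbours on the minus strand, in the cluster around ZNF468. ZNF600 (chr19:52749942-52786807) had 6.8, 6.42 and 6.0 CPM in control and 41.3, 32.1 and 35.5 CPM with lurbinectedin, on the log2 scale a change of 2.50 ± 0.148 (SE; adjusted p in edgeR = 3.74e-09). ZNF28 (chr19:52797408-52857600) went from 23.7, 24.5 and 22.1 CPM to 115.0, 107.0 and 99.8 CPM, a log2 fold change of 2.19. ZNF468 (chr19:52838010-52857649) went from 30.1, 34.5 and 31.2 CPM to 192.0, 174.0 and 171.0 CPM, a log2 fold change of 2.48. In each of these genes every lurbinectedin library lay above every control. The ZNF28 and ZNF468 annotations start side by side and share exon sequence: 3.85% of the ZNF28 and 0.549% of the ZNF468 exonic length overlap other genes. The next gene on that side, ZNF320 (chr19:52860851-52897693), had 42.0, 42.2 and 41.7 CPM in control and 39.0, 39.3 and 40.7 CPM with lurbinectedin; its change of -0.08 ± 0.124 on the log2 scale (SE) did not pass the test (adjusted p in edgeR = 0.575).

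**Figure D2:**
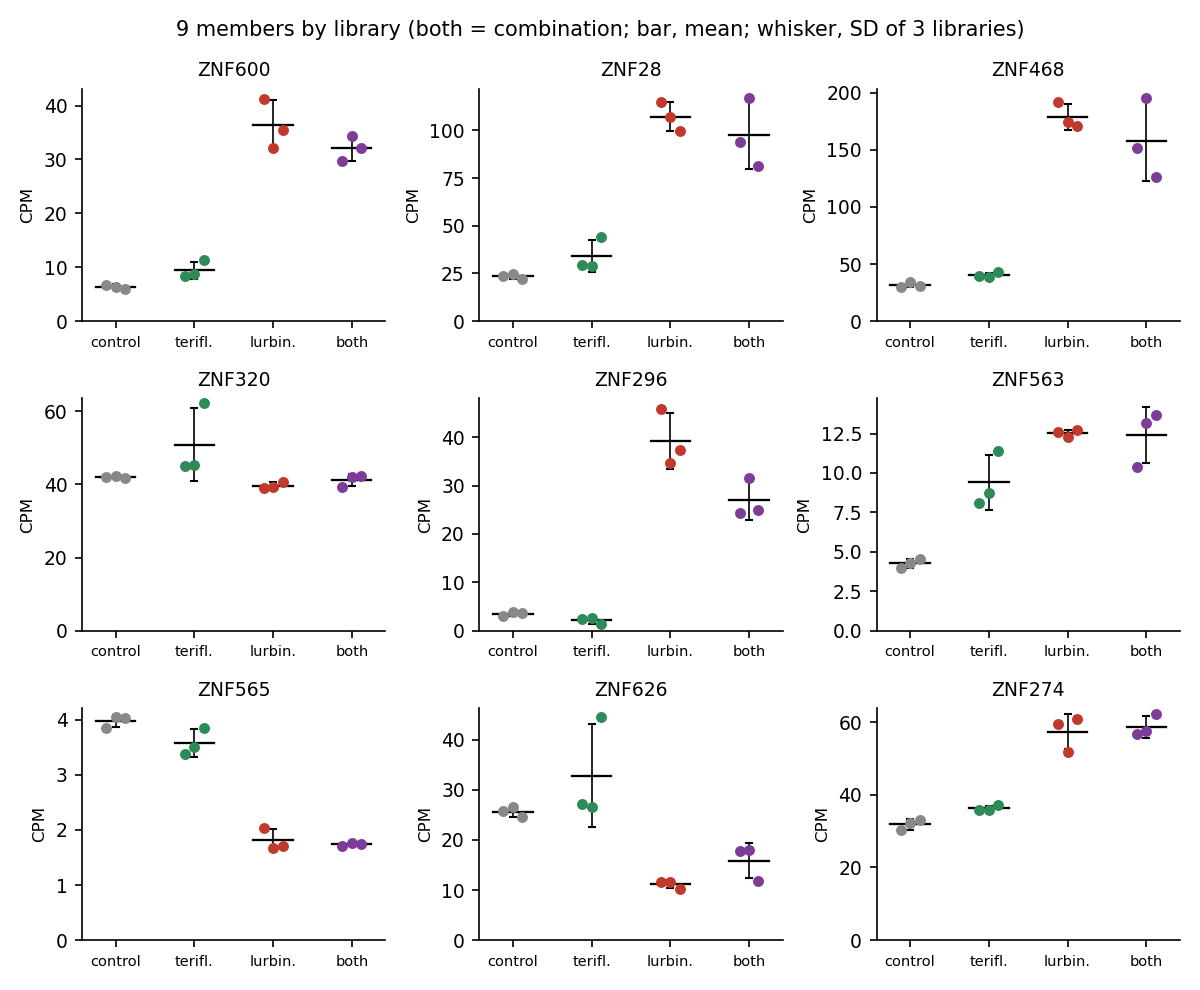
CPM of 9 members in each library (points), with the group mean (bar) and SD of 3 libraries (whisker); axes start at 0 and differ between genes. ZNF600, ZNF28, ZNF468 and ZNF296 were high in every lurbinectedin and combination library, ZNF320 stayed between 39.0 and 42.4 CPM outside the teriflunomide group, and ZNF565 and ZNF626 were lower with lurbinectedin than in control.

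Other members with large rises were ZNF878 with a log2 fold change of 2.48, ZNF540 with 2.27, ZNF761 with 2.08, ZNF574 with 2.01, ZNF579 with 2.0 and ZNF844 with 1.96. ZNF878 and ZNF844 share 20.0% and 45.3% of their exonic length with other annotated genes on the same strand, and their counts are uncertain to that extent. ZNF574 and ZNF579 have no exon shared with another gene; ZNF574 rose from 21.4, 20.2 and 25.3 CPM to 98.2, 79.6 and 92.6 CPM. Among the 5 genes with the highest levels, ZNF317 rose from 61.7, 65.4 and 64.8 CPM to 207.0, 178.0 and 188.0 CPM and ZNF581 had a log2 fold change of 1.24. ZNF146 (0.14), ZNF428 (0.25) and ZNF480 (0.02) did not pass the test.

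The falls were smaller. ZNF285 (chr19:44382298-44401608, minus strand) had 6.0, 7.32 and 6.75 CPM in control and 1.94, 2.27 and 3.09 CPM with lurbinectedin. Its libraries did not overlap, and the difference was -1.45 ± 0.179 on the log2 scale (SE; adjusted p in edgeR = 5.85e-06). ZNF573 (-1.31), ZNF792 (-1.23), ZNF429 (-1.2), ZNF626 (-1.2), ZNF565 (-1.14), ZNF566 (-1.12), ZNF254 (-1.08), ZNF112 (-0.82) and ZNF100 (-0.79) completed the 10 largest falls among genes with at least 2 CPM in control and no overlap between libraries. Of these 10, 4 (ZNF429, ZNF626, ZNF254 and ZNF100) lie in the cluster around ZNF91, and ZNF565, ZNF566 and ZNF573 lie in the cluster at chr19:36182276-37817300. ZNF565 shares 12.3% of its exons with other genes, including the far more abundant ZNF146 on the opposite strand.

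ZNF536, a repressor of neuronal differentiation genes and a gene without a KRAB pattern, was lower in counts by more than any other member. It had 4, 13 and 20 counts in control and 2, 1 and 0 counts with lurbinectedin. The ratio of the summed, depth-scaled counts was 0.103 (95% exact interval 0.0202 to 0.324, counting error only), and edgeR gave an adjusted p = 0.00506. It is also the longest member, with a span of 485.0 kb.

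Members with a described role outside these lists moved in both directions. ZNF274, which recruits SETDB1 to the 3′ ends of zinc finger genes themselves, had 30.3, 32.2 and 33.0 CPM in control and 59.6, 51.8 and 60.8 CPM with lurbinectedin. Every treated library lay above every control (log2 fold change 0.85 ± 0.101 SE, edgeR adjusted p = 3.82e-06). ZNF91 and ZNF93, which repress SVA and LINE-1 retrotransposons, did not pass the test, with log2 fold changes of -0.15 and -0.14. ZNF91 had 51.7, 55.9 and 52.2 CPM in control and 48.7, 50.2 and 44.7 CPM with lurbinectedin.

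ZNF473, a component of the U7 particle that processes histone messenger RNA, rose from 43.3, 44.0 and 44.1 CPM to 137.0, 117.0 and 125.0 CPM (log2 fold change 1.53, edgeR adjusted p = 8.74e-09). ZNF432 rose by a log2 fold change of 1.0, ZNF671 by 0.93, ZNF568 by 0.84 and ZNF675, described as an inhibitor of TRAF6 signalling, by 0.83. ZNF420, described as a negative regulator of p53, fell from 18.8, 17.9 and 17.4 CPM to 14.4, 14.2 and 13.8 CPM (log2 fold change -0.35, edgeR adjusted p = 0.00895). ZNF331 (-0.20), ZNF382 (-0.33), ZNF224 (0.29) and ZNF175 (0.15) did not pass the test.

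The response varied along the chromosome. Members were assigned to 16 clusters by breaking the order of start positions at gaps over 1 Mb. Their counts stand beside 36.0% higher and 35.7% lower over all genes tested. In the cluster nearest the long-arm telomere (cluster 16, chr19:55476617-58481230), 46 of 57 members were higher with lurbinectedin and 1 was lower, and the median log2 fold change stood at 0.88. In cluster 2 (chr19:7069703-9793180), 10 of 13 were higher and 0 lower, with a median of 1.19. Cluster 3 (chr19:11483427-12640098) had 14 of 24 higher and 0 lower, and cluster 15 (chr19:51571283-53580269) had 27 of 38 higher and 1 lower, with medians of 0.58 and 0.66. Plain library sizes gave cluster 3 a median of 0.35 with 10 higher and 3 lower, and cluster 15 a median of 0.43 with 21 higher and 4 lower. Over all 16683 genes tested, that scaling gave 4313 higher and 6699 lower.

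Cluster 5, which holds ZNF91 and ZNF93 and spans chr19:19668796-24129968, had 8 of 28 members higher and 7 lower, with a median of -0.15, beside 36.0% and 35.7% of all genes. With plain library sizes it had 6 higher and 14 lower, and a median of -0.38. Of all 16683 genes, 4313 were then higher and 6699 lower. Cluster 9 (chr19:36182276-37817300) had 10 of 26 higher and 5 lower, with a median of 0.10, which was -0.14 with plain library sizes. Cluster 12 (chr19:43596392-45076587) had 12 of 23 higher and 4 lower, with a median of 0.39; with plain library sizes 6 were higher and 6 lower, and the median was 0.16. Across the 211 pairs of neighbouring members within a cluster, the Spearman correlation of the log2 fold changes was 0.36, a description over genes that share libraries. Other genes tested inside the same intervals had medians of 0.13 in cluster 5 (18 genes), 0.63 in cluster 9 (18 genes), 0.85 in cluster 2 (41 genes) and 0.89 in cluster 16 (49 genes). Without the teriflunomide and combination libraries that stood apart, cluster 5 had 10 members higher and 10 lower with lurbinectedin and cluster 16 had 48 higher and 1 lower. The clusters also differ in the genomic span of their members. Median spans were 41.0 kb in cluster 9, 38.8 kb in cluster 5 and 28.6 kb in cluster 15. They were 23.0 kb in cluster 2, 21.0 kb in cluster 3, 18.8 kb in cluster 12 and 13.6 kb in cluster 16. The part of span in the differences between clusters was not tested.

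**Figure D3:**
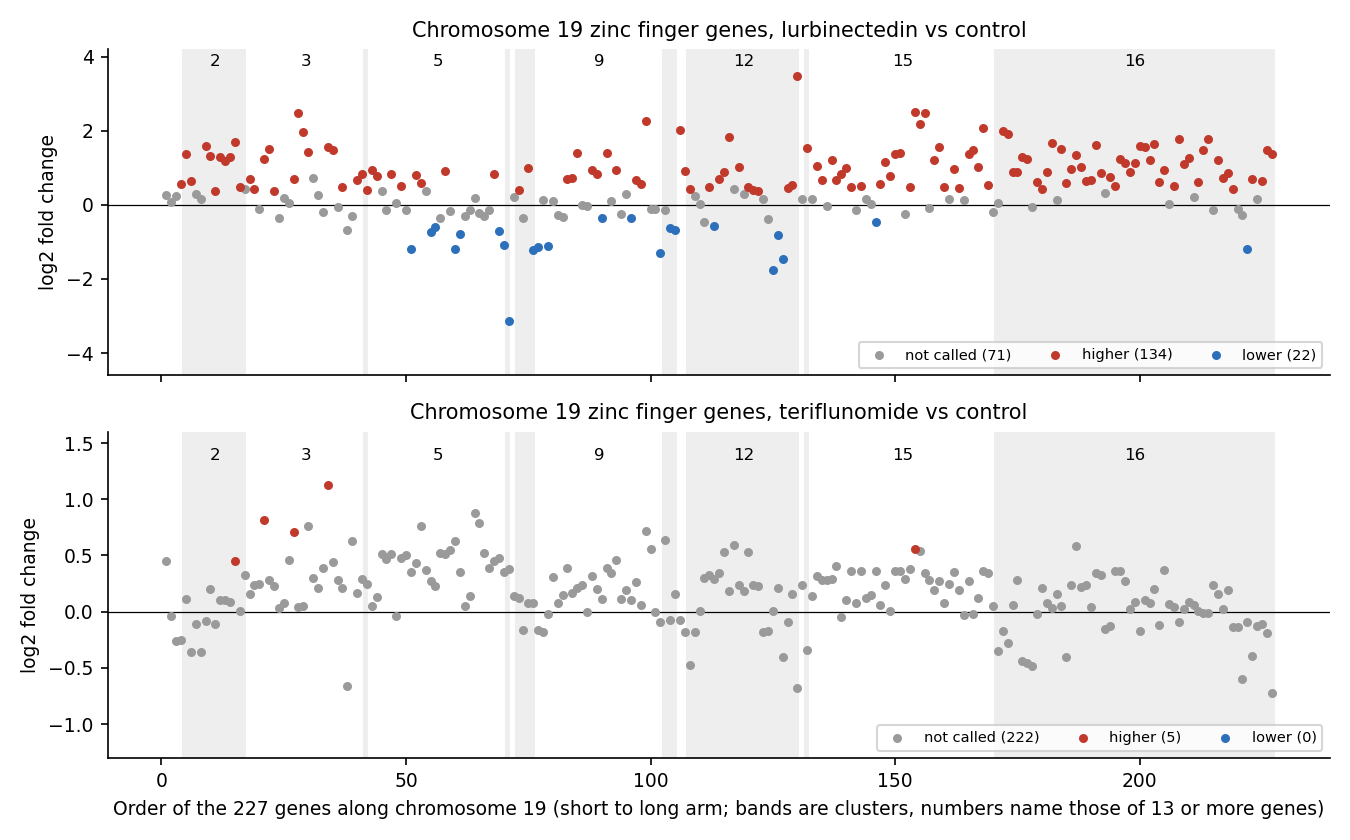
Log2 fold change of each of the 227 members in their order along chromosome 19, with lurbinectedin (top) and teriflunomide (bottom) against the same control libraries; red, called higher; blue, called lower; grey, not called; bands mark clusters. With lurbinectedin 134 were higher and 22 lower, and with teriflunomide 5 were higher. Of the 22 lower members, 7 were in cluster 5, 5 in cluster 9, 4 in cluster 12 and the rest in other clusters.

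Genomic span, the distance from a gene's first to last base with introns, went with the response. All genes tested were divided into 5 equal classes by span. For all genes the median fell from 0.70 in the shortest class (up to 5.21 kb) through 0.62, 0.28 and -0.36 to -1.86 in the longest (over 82.8 kb). For the members the 5 medians were 1.40 (n = 6), 0.74 (n = 53), 0.50 (n = 109), 0.15 (n = 52) and -0.25 (n = 7). In the class from 35.9 to 82.8 kb, 19.2% of members were lower, against 49.1% of all genes and 41.7% of the 60 numbered ZNF genes elsewhere.

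The longest class held 7 members. ZNF675 (162.0 kb) and ZNF577 (86.1 kb) rose with lurbinectedin, with log2 fold changes of 0.83 and 1.05. ZNF254 (96.6 kb), ZNF420 (123.0 kb) and ZNF536 fell. ZNF91 (90.5 kb) and ZNF83 (96.4 kb) did not pass the test. In this class 83.6% of all genes and 24 of 30 numbered ZNF genes elsewhere were lower, with a median of -1.85 in the latter. The class runs from 82.8 to 2300 kb, while its members other than ZNF536 (485.0 kb) span 86.1 to 162.0 kb. Members and other genes in it were therefore not matched in span. As a description across genes, the Spearman correlation of span with log2 fold change was -0.32 over the members and -0.57 over all 16683 genes.

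**Figure D4:**
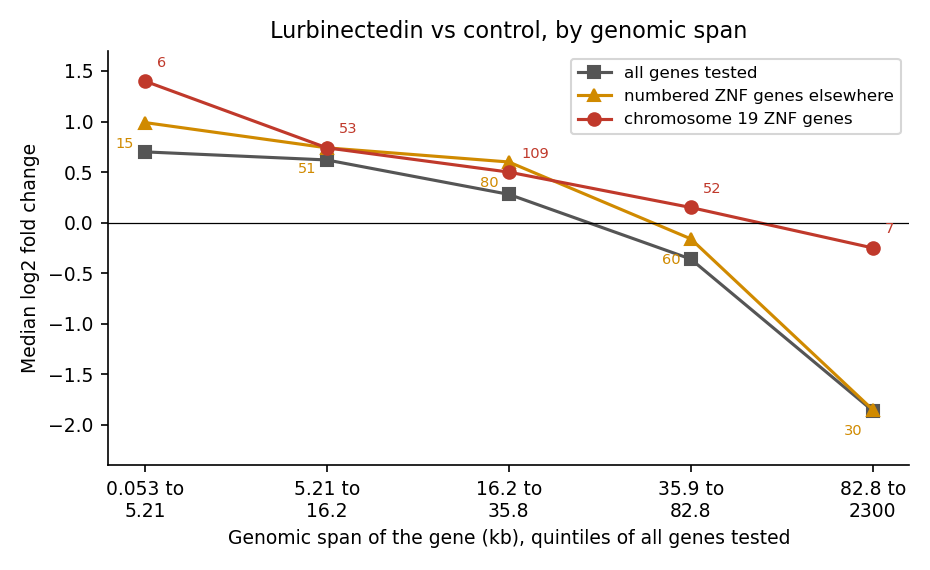
Median log2 fold change with lurbinectedin against control in 5 classes of genomic span, for all genes tested (grey squares), numbered ZNF genes on other chromosomes (orange triangles) and the 227 members (red circles), with the number of genes beside each ZNF point. In the longest class (82.8 to 2300 kb) the members stood at -0.25 (n = 7) and both other sets near -1.86. Spans within this class were not matched between the sets.

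Genes of the family with alike promoters were set beside each other. For comparison, 36.0% of all genes tested were higher with lurbinectedin and 35.7% lower. In the family around ZNF468 (ZNF808, ZNF701, ZNF83, ZNF611, ZNF468, ZNF845, ZNF525, ZNF765, ZNF761 and ZNF813), 9 of 10 genes were higher with lurbinectedin and 0 lower; the median of their log2 fold changes was 1.37. The tenth was ZNF83, with 18.2, 18.6 and 18.4 CPM in control and 14, 17.9 and 14.4 CPM with lurbinectedin; its log2 fold change was -0.25 (edgeR adjusted p = 0.215). ZNF761, by contrast, went from 25.3, 26.3 and 24.7 CPM to 113.0, 105.0 and 105.0 CPM. ZNF83 lies in the longest class of span (over 82.8 kb), against a family median of 30.8 kb, and the part of span was not tested. With plain library sizes 7 of the 10 family genes were higher and 1 lower, beside 4313 higher and 6699 lower of all 16683 genes.

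In the family around ZNF91, 4 of 20 genes were higher and 6 lower, beside 36.0% and 35.7% of all genes. The median was -0.16 and the range was from -1.2 to 0.83. ZNF626 had 25.8, 26.6 and 24.6 CPM in control and 11.6, 11.7 and 10.3 CPM with lurbinectedin, whereas ZNF682 had 10.9, 11.7 and 10.1 CPM in control and 19, 20.3 and 18.5 CPM with lurbinectedin. The libraries of neither gene overlapped, and the genes moved in opposite directions. With plain library sizes 2 of the 20 were higher and 12 lower, beside 4313 higher and 6699 lower of all 16683 genes. The families also differ in span, with medians of 42.1 kb around ZNF91 and 30.8 kb around ZNF468, and their part in the difference was not tested.

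Over single pairs, likeness of the promoter went only slightly with likeness of response. The 227 pairs of promoters with at least 70% identity, formed by 50 genes, had a median absolute difference in log2 fold change of 0.61. The 2667 other pairs within the same cluster had 0.65, and all 20301 pairs had 0.76. Pairs share genes and are not independent, so no test was made.

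**Figure D5:**
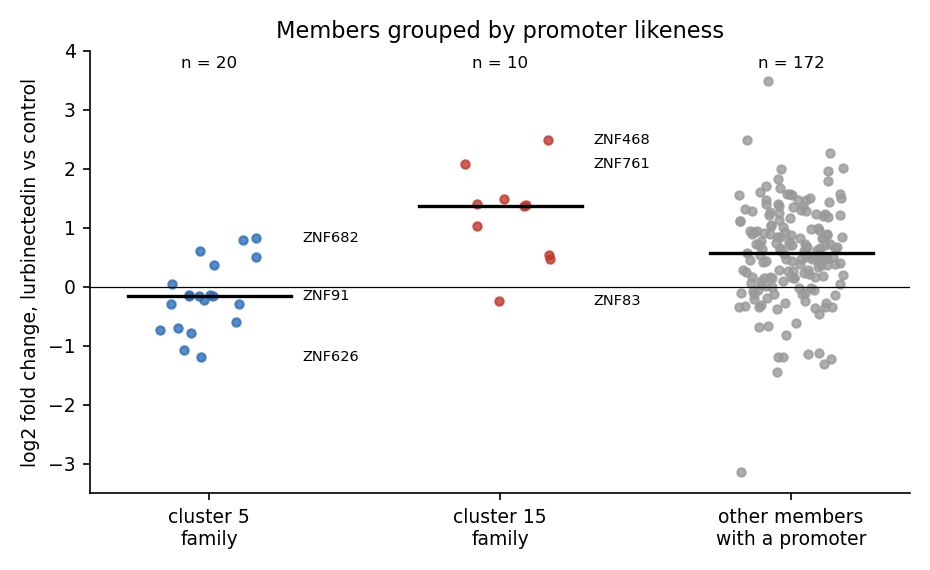
Log2 fold change with lurbinectedin against control for the 20 genes of the promoter family in cluster 5, the 10 of the family in cluster 15 and the 172 other members with a promoter; points are genes, spread sideways for visibility, and bars are medians. The family in cluster 15 lies around 1.37 with ZNF83 at -0.25, and the family in cluster 5 around -0.16.

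Short motifs in the promoters were counted on both strands. The ETS-type letters CCGGAAG were found in 45.0% of the 202 member promoters, in 36.9% of 195 promoters of numbered ZNF genes elsewhere and in 10.7% of all 27305 promoters in the RefSeq table. The share was 50.8% among the 120 members higher with lurbinectedin, 26.3% (5 of 19) among those lower and 39.7% among those not called. The GC box GGGCGG was found in 66.8% of member promoters and in 44.6% of all promoters, CCAAT in 53.5% and 35.7%, and the TATA letters TATAAA in 1.98% and 12%. A match describes letters in this window and not a bound site.

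The encoded proteins were compared through fingers and KRAB patterns in the translated coding sequences of GENCODE release 29. The median was 12 C2H2 finger patterns per gene, with the most, 31, in ZNF91. Among all genes tested, 36.0% were higher and 35.7% lower with lurbinectedin. A KRAB pattern was found in 190 members, of which 112 were higher and 19 lower with lurbinectedin (median log2 fold change 0.49). It was not found in the other 37, of which 22 were higher and 3 lower (median 0.65); the latter genes were shorter, with a median span of 13.4 kb against 26.2 kb. By finger number, the medians were 0.78 for 0 to 5 fingers, 0.65 for 6 to 9, 0.52 for 10 to 13 and 0.46 for 14 to 31. Their median spans were 11.3, 18.5, 25.6 and 27.3 kb in the same order, and the part of span in this order was not tested.

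A list of 36 genes linked to heterochromatin, among them cofactors that KRAB proteins work through, was also measured. The list is wider than these cofactors and also holds the histone demethylase genes KDM4A, KDM4B and KDM4C. Of its 35 tested genes, 7 were higher and 20 lower with lurbinectedin, beside 36.0% and 35.7% of all genes. Their median log2 fold change stood at -0.64. The difference from the members was not tested. TRIM28, the corepressor itself, went up, from 512.0, 508.0 and 520.0 CPM to 1520.0, 1240.0 and 1400.0 CPM (log2 fold change 1.44, edgeR adjusted p = 4.71e-05). SETDB1, which methylates histone H3 at lysine 9, fell by a log2 fold change of 0.85, and ATRX, a chromatin remodeller of silent regions, fell by 2.94 from a mean of 185.0 to 24.1 CPM. The 5 largest changes in the list were those of SENP7 (-4.39), EHMT1 (-3.40), KDM4C (-2.98), ATRX (-2.94) and DNMT3A (-2.15). TRIM28 spans 6.66 kb and ATRX 281.0 kb, and the list's median span was 49.2 kb against 24.6 kb for the members. Of all genes with spans of 35.9 to 82.8 kb, 49.1% were lower with lurbinectedin, and of those with longer spans 83.6% were lower. SENP7, EHMT1, KDM4C and DNMT3A span 189.0, 251.0, 455.0 and 115.0 kb, so all 5 of the largest changes fell in that longest class. The part of span in these falls was not tested.

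Few members were called with teriflunomide alone. Their library medians, as log2 ratios to the control mean, were 0.08, 0.05 and 0.31, and teriflunomide replicate 3 lay apart from the others. In edgeR's test 5 of 227 members were higher than control (2.20%, against 3.88% of all genes) and 0 lower (against 2.13%). With DESeq2 the counts were 22 and 6, and without teriflunomide replicate 3 and combination replicate 2 they were 19 and 6. No share of all genes is given for either fit, so these counts are not set against a background. At an unadjusted p under 0.05 there were 60 members (26.4%, against 24.8% of all genes). Of the 227 members, libraries did not overlap in 77 that were higher and 15 that were lower, against 20.1% and 16.7% of all genes. By this measure the members' share lay above the background upwards and below it downwards. The members had a median of 0.18 on the log2 scale, or 0.07 without teriflunomide replicate 3.

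ZNF563 (chr19:12317477-12333720, minus strand) changed most with teriflunomide. It had 3.95, 4.31 and 4.54 CPM in control and 8.09, 8.71 and 11.4 CPM with teriflunomide. The libraries did not overlap, and the difference was 1.13 ± 0.158 on the log2 scale (SE; adjusted p in edgeR = 0.00163), or 0.97 (adjusted p = 0.000365) without teriflunomide replicate 3. ZNF441 (0.82, adjusted p = 0.037) and ZNF433 (0.71, adjusted p = 0.0242), in the same cluster as ZNF563, and ZNF561 (0.45, adjusted p = 0.0284) and ZNF600 (0.56, adjusted p = 0.0401) were the others.

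These 4 calls were close to the threshold. Each was lost on leaving out any 1 of the 3 control libraries: the adjusted p was then 0.103 to 0.147 for ZNF441, 0.0865 to 0.11 for ZNF433, 0.0919 to 0.127 for ZNF561 and 0.113 to 0.169 for ZNF600. Leaving out teriflunomide replicate 3 gave an adjusted p of 0.0571 for ZNF600, with a log2 fold change of 0.41, and a log2 fold change of 0.52 for ZNF441. All 5 genes called with teriflunomide were also higher with lurbinectedin, in comparisons that share the control libraries; ZNF561 had 57.2, 54.2 and 53.5 CPM in control, 68.5, 69.8 and 86.7 CPM with teriflunomide and 181.0, 179.0 and 175.0 CPM with lurbinectedin.

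Cluster 5 had the highest median with teriflunomide among the clusters of 13 or more members, 0.46, with 0 of 28 genes called. Without teriflunomide replicate 3 the median was 0.14, again with 0 called, and cluster 3 had the highest, 0.20; without combination replicate 2 as well, the cluster 5 median was 0.14 with 2 genes called. ZNF91 had 54.0, 56.6 and 99.5 CPM with teriflunomide against 51.7 to 55.9 CPM in control, and ZNF626 had 27.2, 26.6 and 44.6 CPM against 24.6 to 26.6 CPM. Across the members the log2 fold change with teriflunomide went with transcript GC content (Spearman correlation -0.49) and span (0.28), and without teriflunomide replicate 3 these were -0.14 and 0.01.

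The combination gave values close to those of lurbinectedin. Against control, 140 members were higher and 16 lower (34.1% and 34.4% of all genes), and their median log2 fold change stood at 0.56. Of these, 128 were also higher and 16 also lower with lurbinectedin alone, in comparisons that share the control libraries. Without the libraries that stood apart the counts were 144 and 23. ZNF600 had 29.7, 34.3 and 32.2 CPM with the combination, ZNF468 had 152.0, 195.0 and 126.0 CPM, and ZNF274 had 56.6, 57.5 and 62.2 CPM. Each of these libraries lay above all control libraries of its gene.

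Against teriflunomide, 121 members were higher with the combination and 24 lower (35.2% and 35.8% of all genes), with a median of 0.38; without both libraries that stood apart, 137 were higher and 22 lower. Against lurbinectedin, 0 members were higher and 0 lower in edgeR's test, as for all genes (0.0% each way), and 19 members had an unadjusted p under 0.05 (8.4%, against 15.6% of all genes). DESeq2 called 1 member higher and 0 lower, and without both libraries that stood apart edgeR called 9 higher and 23 lower. As no share of all genes is given for these fits, their calls cannot be read as particular to the members. The members' median was 0.04.

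The 3 members with the smallest p for the combination against lurbinectedin were ZNF749, ZNF440 and ZNF224. ZNF749 had 19.8, 18.5 and 19.1 CPM with lurbinectedin and 15.7, 14.6 and 15.2 CPM with the combination (log2 fold change -0.34, edgeR adjusted p = 0.199). ZNF440 had 38.7, 41.5 and 44.6 CPM and 51.8, 48.1 and 53.4 CPM (0.30, adjusted p = 0.207). ZNF224 had 16.3, 18.4 and 16.4 CPM and 20.1, 23.6 and 23.4 CPM (0.39, adjusted p = 0.209). In all 3 the libraries of the groups did not overlap although the test was not passed. The genes were chosen by their p in this same comparison, so the lack of overlap adds no support. Among the 227 members, libraries did not overlap in 30 that were higher and 23 that were lower, against 11.1% and 12.6% of all genes. Leaving out teriflunomide replicate 3, which is in neither group but enters the estimate of spread, gave adjusted p of 0.0379, 0.0294 and 0.0182.

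Whether the effect of the combination differed from the sum of the single-drug effects on the log2 scale was tested as an interaction. Of 227 members, 0 were above and 1 was below that sum (0.036% and 0.222% of all genes), with a median of -0.10. Without teriflunomide replicate 3 and combination replicate 2, 3 members were above and 13 below, in a fit for which no share of all genes is given. The gene called with all libraries was ZNF563, at 12.6, 12.3 and 12.7 CPM with lurbinectedin and 10.4, 13.2 and 13.7 CPM with the combination, values that overlap. Its interaction was -1.15 ± 0.218 on the log2 scale (SE, edgeR adjusted p = 0.0496).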

How the data were processed

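RNA-seq libraries of total RNA were made with a KAPA mRNA kit, per the labels' protocols. The authors deposited whole-number counts per gene, 1 file per library, with exon positions and exonic length per the file headers; fastp 0.23.2, STAR 2.7.9, Subread and featureCounts and the build hg38 are named in the submitters' processing notes. Strand and multi-mapping settings are not given in the sources used here. The deposited exonic length column (another kind of value, in bases) was used for RPKM.

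The members and gene lists were chosen with earlier results of these data known. Gene IDs were matched to symbols for 60507 of 60649 rows (99.77%); 37318 IDs had the same version in GENCODE release 29, and all 37318 had the same coordinates there (GRCh38). Exons of 135 members overlapped another gene's exons (74 on the opposite strand), by a median of 3.09% of exonic length and by over 50% in 8.

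All 12 libraries were fitted with 1 mean per group in edgeR 4.0.16 (R 4.3.3; TMM scaling, filterByExpr, robust quasi-likelihood test). Adjusted p-values are Benjamini-Hochberg over 16683 genes, calls need an adjusted p under 0.05, and a standard error is the fold change over the root of the F statistic. CPM use TMM-scaled library sizes. Comparisons against control share the control libraries. The fit was tested on simulated counts. Named genes were the 10 largest called rises and falls with lurbinectedin (at least 2 CPM in the higher group, no overlap between libraries), 5 and 5 with teriflunomide, the 3 smallest p for the combination against lurbinectedin and for the interaction, the 5 highest control RPKM, and members of described role; ZNF320, ZNF577, ZNF682 and ZNF83 were added after their values were seen. Promoters were aligned globally with Biopython 1.88.

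Alternatives were DESeq2 1.42.0, other scalings and filters, a test against a 1.5-fold change, a replicate block and leaving out each library. Same-numbered libraries did not vary together: correlations of their deviations ranged from -0.402 to 0.144 over 18 pairs, so the numbers were not treated as pairs. One marker gene is not reported here.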

Additional observations from a re-analysis of the deposited data

Results flagged for a closer look

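One gene was set apart because its response to lurbinectedin differed between spheroids with and without teriflunomide in a direct test: the ZNF563 interaction was -1.15 on the log2 scale (edgeR adjusted p = 0.0496). The call was lost in 16 of the other settings run. Leaving out any 1 control library gave adjusted p of 0.142 to 0.21, and any 1 lurbinectedin library 0.146 to 0.168. It was also lost without teriflunomide replicate 2 (0.0788) and without combination replicate 1 (0.122), 2 (0.0544) or 3 (0.0694), while the value stayed between -1.23 and -0.98. The call was kept in edgeR without teriflunomide replicate 1 (adjusted p = 0.0487) or 3 (0.00793) and without both libraries that stood apart (0.00132). It was also kept in edgeR without an expression filter (0.00762) and with DESeq2 (0.000382).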

How the results depend on the processing

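With lurbinectedin against control, plain library sizes gave 42 lower members and a median log2 fold change of 0.27; no expression filter gave a median of 0.43, a filter at 1 CPM 0.57 and DESeq2 0.46. Testing against a 1.5-fold change left 80 higher and 10 lower, fitting only the groups compared gave 37 lower, and the members with exons free of other genes (fewer genes) gave 58 higher, 5 lower and a median of 0.61. With teriflunomide, higher and lower members were 2 and 0 with plain library sizes, 13 and 3 without a filter, 5 and 2 with the 1 CPM filter, 22 and 6 with DESeq2; 1 was higher when only the groups compared were fitted or at an adjusted p under 0.01, and 0 against a 1.5-fold change. For the combination against control, plain library sizes gave a median of 0.39, the 1.5-fold test 86 higher and 7 lower, and the free-exon members 61 and 2. Against teriflunomide these tests gave 60 and 10, and 51 and 8. Against lurbinectedin 2 members were higher without a filter and 1 with DESeq2. For the interaction 0 were lower with DESeq2 size factors, plain library sizes, the 1 CPM filter, the 1.5-fold test or an adjusted p under 0.01, and 3 with DESeq2; its median was 0.04 with plain library sizes. Over all 16683 genes, plain library sizes gave 4313 higher and 6699 lower with lurbinectedin, and 174 and 91 with teriflunomide. The cause of these moves was not tested.

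A replicate block gave 1 member higher with teriflunomide and 0 lower in the interaction, although the replicate numbers did not pair the libraries. Leaving out 1 library at a time, the medians ranged from 0.48 to 0.56 (lurbinectedin), 0.07 to 0.22 (teriflunomide), 0.49 to 0.59 (combination), 0.35 to 0.47 (combination against teriflunomide), -0.02 to 0.07 (against lurbinectedin) and -0.16 to 0.02 (interaction). Members called higher ranged from 125 to 141 with lurbinectedin, 1 to 13 with teriflunomide and 0 to 9 for the combination against lurbinectedin, and those called lower from 19 to 29, 0 to 4 and 0 to 7; the interaction had 0 to 3 lower. Without teriflunomide replicate 3 and combination replicate 2 (chosen after seeing the data), 19 and 6 were called with teriflunomide, 9 and 23 for the combination against lurbinectedin, and 3 and 13 for the interaction. Whether more of all genes were also called in this fit is not given. Of 1227 values recomputed for named genes, 1131 kept their call, 67 lost it, 29 gained one and 0 reversed.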
